A study of Rattus norvegicus with 25 samples.

Results

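Cytosolic ribosomal proteins are the protein part of the ribosomes that translate nuclear messages, and their transcripts were followed here in 7 stable lines of McArdle-RH7777, a rat hepatoma cell line that secretes apoB-containing lipoproteins. Members were all probe sets of an Affymetrix rat array that carried exactly 1 gene symbol and whose symbol was a cytosolic large or small subunit protein (Rpl, Rps, Rplp or Rpsa, with the S6 kinases left out). The rule found 55 probe sets of 48 genes, among 31042 probe sets and 14217 genes with exactly 1 symbol. The members comprised 13 genes of the 40 S subunit, 28 of the 60 S subunit, the stalk protein Rplp0 and 6 paralogs, which are relatives of canonical ribosomal proteins. A further 36 probe sets carried several symbols, at least 1 of them ribosomal, and were not counted as members.

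All lines carried the tetracycline repressor, were kept in blasticidin and Zeocin, and received 1 µg/ml tetracycline for 24 h before harvest. Sar1, the GTPase that starts assembly of the COPII coat at the endoplasmic reticulum, was overexpressed as human Sar1A, human Sar1B or the Sar1B:H79G mutant, which cannot complete GTP hydrolysis, and the study's methods describe the constructs as FLAG-tagged and the controls as empty vector. The 25 arrays were 5 from 2 control lines, 8 from 2 Sar1B lines, 8 from 2 Sar1B:H79G lines and 4 from 1 Sar1A line. Each line was grown from a picked clone, so that group differences rest on 2 clones or fewer per group, and arrays of a line are repeat measurements of it. The array codes of both control lines start with other letters than those of all Sar1 lines, so that an effect of Sar1 and one of the array series cannot be told apart against control. Of 11 hepatocyte markers 10 were measured, and 3 of these, Hnf4a, Apob and Serpina1, fell in Sar1B:H79G-overexpressing cells relative to control, where 10.6% of all genes fell. Line means of Hnf4a lay between 9.88 and 10.89 and those of Apob between 10.07 and 12.59. None of 6 markers of leukocytes, macrophages, fibroblasts, endothelium or smooth muscle passed limma's test in that comparison (1 at an unadjusted p under 0.05), and their line means lay between 6.51 and 9.95 on the log2 scale.

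Ribosomal protein messages are among the most abundant in any growing cell and are made in near-equal proportion, because most of the proteins are needed once per ribosome. Most of them start with a run of pyrimidines, the terminal oligopyrimidine (TOP) motif, through which the kinase mTOR and the RNA-binding protein Larp1 set how much of the existing message is translated. Array signals report the amount of message and not its use by ribosomes.

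RefSeq start sites of the GRCr8 assembly were matched by symbol for 43 of the 48 genes, with no entry for Rpl23a, Rpl27, Rpl30, Rpl7 and Rps29. A run of 8 or more consecutive C or T bases on the coding strand within 25 bases of the annotated start was present in 30 of the 43 member genes (69.8%), and in 19.4% of all 33469 start sites in the same table. The sequences below run 15 bases before to 15 bases from the annotated start, with the longest C or T run of each window in capitals. They are examples and show a stalk protein and 4 canonical subunit proteins with such a run at or, for Rpl5, just before the start. They also show the paralogs Rpl7l1 and Rps27l, whose longest runs within 25 bases of the start were 5 and 3 bases. Canonical Rpl12, Rpl18 and Rps3a (7 bases each), Rpl24 (6), Rpl3 and Rpl6 (5 each), Rpl11 and Rpl26 (4 each) and Rpl41 (3) also lacked such a run. The paralogs Rpl26l1 and Rpl39l1 lacked it too, with 5 and 7 bases, while Rpl3l and Rps4y2 had such a run, of 9 and 8 bases.
Rplp0: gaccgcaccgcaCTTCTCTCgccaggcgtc
Rpl4: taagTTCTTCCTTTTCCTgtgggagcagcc
Rpl5: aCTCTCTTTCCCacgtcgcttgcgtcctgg
Rpl14: gggcgggCCCTCTCCCTTCTCgctgagcgc
Rps23: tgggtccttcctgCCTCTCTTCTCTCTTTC
Rpl7l1: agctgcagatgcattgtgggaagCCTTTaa
Rps27l: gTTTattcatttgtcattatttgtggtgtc
The windows lie at chr12:46718376-46718405 (minus strand) for Rplp0, chr8:73566462-73566491 (plus strand) for Rpl4, chr14:1995211-1995240 (minus strand) for Rpl5, chr8:129163605-129163634 (plus strand) for Rpl14, chr2:23814502-23814531 (plus strand) for Rps23, chr9:21695703-21695732 (plus strand) for Rpl7l1 and chr8:76443643-76443672 (plus strand) for Rps27l. Over the 300 bases around the start, the ETS core CCGGAAG was present on either strand in 10 of 43 members (23.3%) and 8.75% of all start sites, and the YY1 core AAGATGGC in 4 members (9.30%) and 3.17% of all. The TATA box letters TATAAA stood in 6 members (14.0%) and 14.2% of all. The ETS core ends in the letters with which the YY1 core begins, so that matches of the pair can overlap, and a match is a stretch of letters and not a measured binding site.

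Signals are given as log2 values, on which a difference of 1 is a doubling, and levels of different probe sets are not comparable with each other. Of the members, 40 probe sets (38 genes) had a mean above 12 and are called bright here, and 15 were dimmer. The bright probe sets moved as a block across lines. Their median deviation from the mean of all arrays was -0.14 in control line 1 and -0.39 in control line 2. It was 0.05 and -0.03 in the 2 Sar1B lines. In Sar1B:H79G lines 1 and 2 it was 0.22 and -0.00, and in the Sar1A line it was 0.15. The control lines were thus the lowest, and line 2 lay below line 1 in every group that had 2 lines. The order of the lines was control 2, control 1, Sar1B 2, Sar1B:H79G 2, Sar1B 1, Sar1A, Sar1B:H79G 1. The Sar1 line values lay between -0.03 and 0.22, within the range of arrays of 1 line, Sar1A, which ran from -0.10 to 0.32. Arrays ran from 0.06 to 0.36 in Sar1B:H79G line 1, from -0.15 to 0.04 in Sar1B line 2 and from -0.05 to 0.06 in Sar1B:H79G line 2. No control array lay above -0.12. Over the 7 lines the pairwise Pearson correlation of the bright genes had a median of 0.95 and a lowest value of 0.58, as a description of 7 points that share the array scale. Within the 5 Sar1 lines, which lie in 1 array series, the median was 0.85 and the lowest value -0.38, so that not every pair moved together there.

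**Figure D1:**
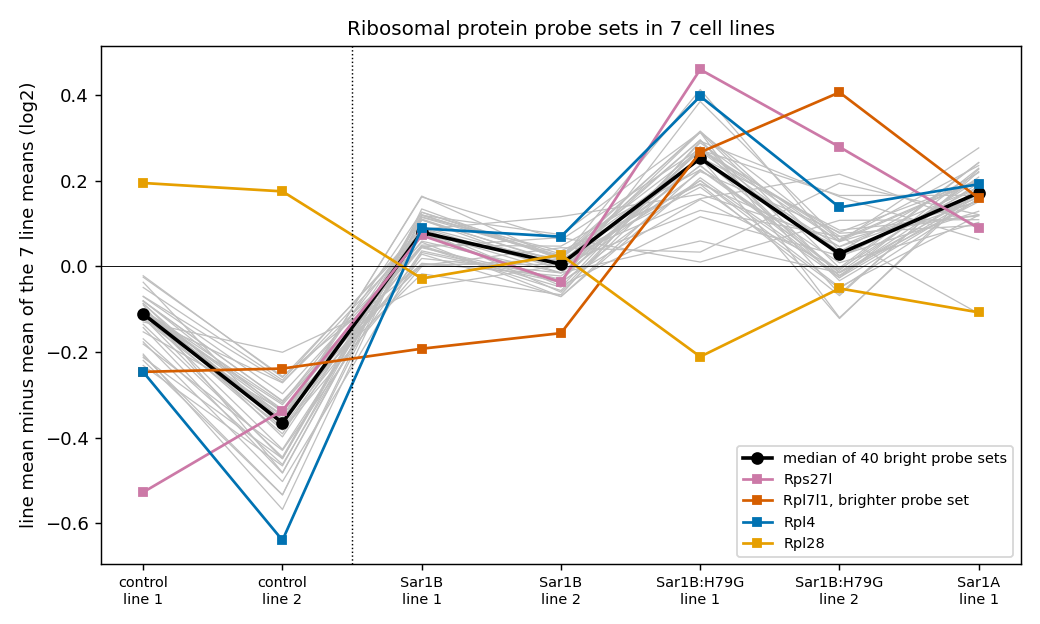
Line mean of each probe set minus its mean over the 7 lines (log2), for the 40 bright ribosomal probe sets (grey), their median (black) and 4 named probe sets; the dotted line separates the array series of the control lines from that of the Sar1 lines. The black line runs lowest in control line 2 and highest in Sar1B:H79G line 1, and Rpl28 runs opposite to it.

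This movement was shared by bright probe sets of other genes. Over the 25 arrays, the median deviation of the 40 bright members and that of 238 probe sets of no ribosomal symbol with a mean above 13 correlated with a Pearson r of 0.99 and a Spearman rho of 0.98, and never differed by more than 0.09. Within the 20 arrays of the Sar1 series r was 0.99. By line, the non-ribosomal bright probe sets deviated by -0.14 and -0.39 in control, 0.06 and -0.01 in Sar1B, 0.18 and -0.01 in Sar1B:H79G and 0.13 in Sar1A. These values follow those of the ribosomal probe sets line by line. The gap between the 5′ and 3′ probe sets of the array's poly-A control transcripts was -1.43 and -1.44 in the control lines and -0.58 to -0.66 in the Sar1 lines, and the corresponding gap for beta-actin was -0.81 and -0.94 against -0.49 to -0.71. The part of these array differences in the shift of the bright members was not tested.

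**Figure D2:**
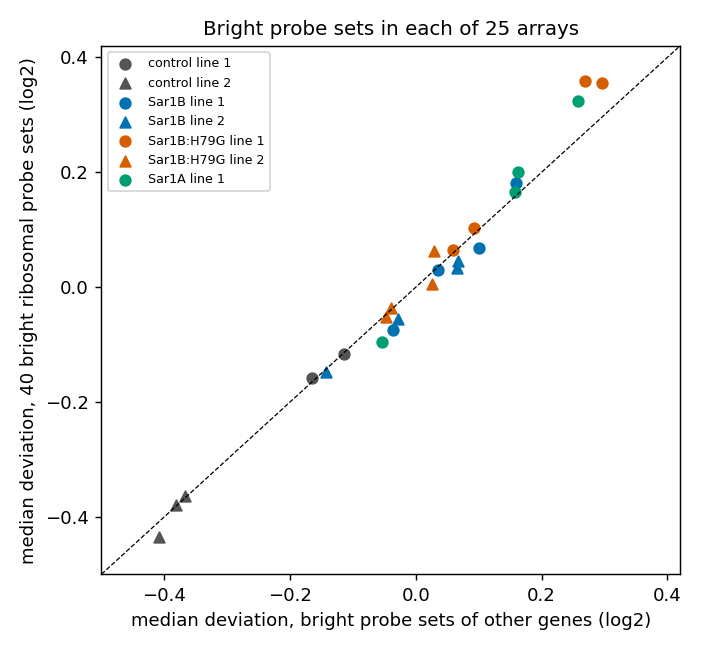
Median deviation from the mean of all arrays (log2) of the 40 bright ribosomal probe sets against that of 238 bright probe sets of other genes, 1 point per array, coloured by group and shaped by line; the dashed line marks equality. The 25 arrays lie along the line of equality within 0.09, with the 5 control arrays at -0.12 or lower on the ribosomal axis.

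The comparison of Sar1B:H79G with control asked how cells with the mutant differ from cells with no Sar1 construct. Of the 55 ribosomal probe sets, 18 passed the test (limma on line means, Benjamini-Hochberg adjusted p under 0.05), 17 higher and 1 lower, where 22.3% of all probe sets passed (13.2% higher and 9.17% lower). All 40 bright members had a positive difference, with a median of 0.40, or 1.32-fold, and quartiles of 0.31 and 0.43. The median was 0.03 over all probe sets and 0.37 over the 238 bright probe sets of other genes, of which 83 (34.9%) rose. Both Sar1B:H79G line means lay above both control line means in 38 of the 40 bright members, as they did in 38.2% of all probe sets and 73.1% of the bright probe sets of other genes. Among non-ribosomal probe sets the median difference climbed with signal, from 0.01 below 8 to 0.09 between 10 and 11, 0.24 between 12 and 13 and 0.37 above 13. After quantile normalization of the deposited values, which gives every array the same distribution, 5 members passed (4 higher, 1 lower) and the members' median was -0.00. The count also rested on single lines, since it fell when control line 2 or Sar1B:H79G line 1 was left out. It fell too when either Sar1B line was left out, and to 9 in a fit of only the groups compared. The Sar1B lines enter this comparison only through the shared estimate of the spread, so that their loss left each difference as it was.

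**Figure D3:**
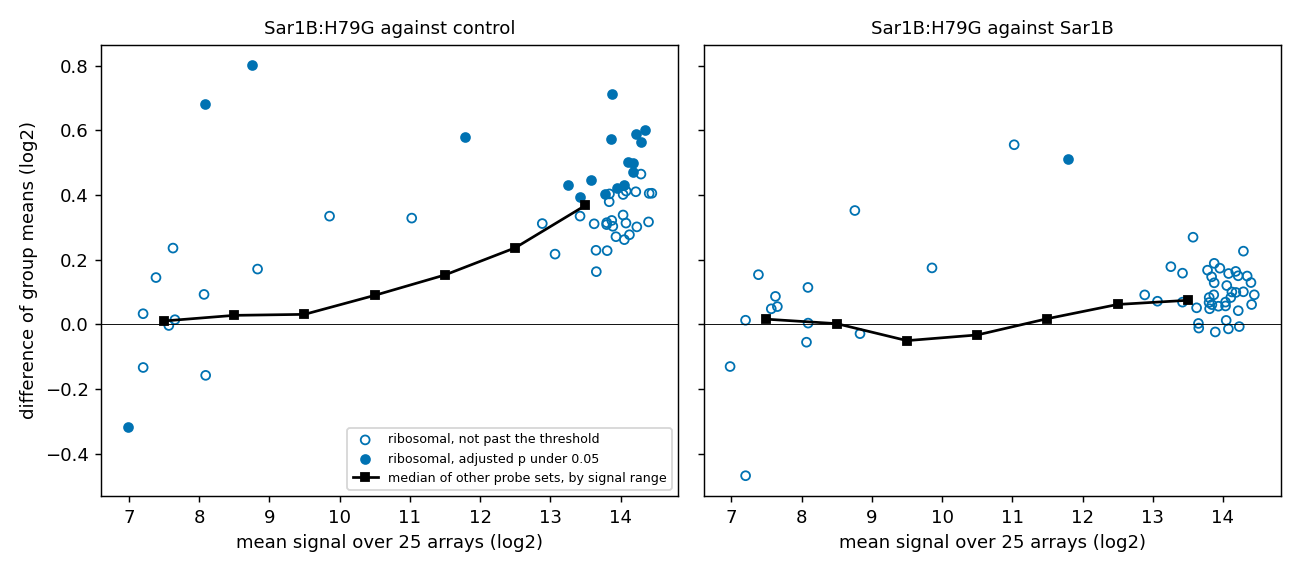
Difference of group means (log2) against mean signal over 25 arrays (log2) for the 55 ribosomal probe sets (circles, filled where the adjusted p was under 0.05), with the median of all other probe sets in 7 signal ranges (squares). The squares climb from 0.01 to 0.37 against control, where the bright ribosomal probe sets have a median of 0.40, and end at 0.07 against Sar1B, where those have a median of 0.09. The squares of the lowest and highest range are drawn at a nominal signal.

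The paralog Rps27l had the largest rise. Rps27l encodes a relative of the small subunit protein Rps27 and is a known p53 target. Its line means were 8.18 and 8.37 in control, 8.78 and 8.67 in Sar1B, 9.16 and 8.98 in Sar1B:H79G and 8.79 in Sar1A. Every Sar1 line lay above both control lines, and both Sar1B:H79G lines above the rest. Single arrays overlapped, with control arrays reaching 8.61 and Sar1B:H79G arrays running from 8.43 through a median of 9.02 to 9.92. The highest array of each Sar1B:H79G line stood at 9.92, well above the other 3 of its line, and with line medians in place of means the difference from control was 0.69 (adjusted p = 0.00777). The difference from control was 0.80 ± 0.10 (SE, adjusted p = 0.00484), and it passed under all 16 alternatives tried, at 0.45 to 0.90. These are not 16 separate checks, since the fits without either Sar1B line and with only the groups compared gave the same result. Sar1B differed from control by 0.45 ± 0.10 (adjusted p = 0.0482), a call that was lost in 11 of 16 alternatives, among them quantile normalization (0.38) and the loss of any control or Sar1B line. Sar1B:H79G differed from Sar1B by 0.35 ± 0.10 (adjusted p = 0.0932), which did not pass.

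Rpl7l1 was the member that separated the mutant from wild-type Sar1B. It encodes a nucleolar relative of Rpl7 that is found on large subunits under assembly. The line means of its brighter probe set were 11.51 and 11.52 in control, 11.57 and 11.61 in Sar1B, 12.03 and 12.17 in Sar1B:H79G and 11.92 in Sar1A. All 8 Sar1B:H79G arrays (11.96 to 12.43) lay above all control (11.47 to 11.56) and Sar1B arrays (11.46 to 11.70). The lowest of them met the highest of the 4 Sar1A arrays (11.86 to 11.96). The difference was 0.58 ± 0.07 from control (adjusted p = 0.00471) and 0.51 ± 0.07 from Sar1B (adjusted p = 0.0116), and 0.18 ± 0.09 from Sar1A (adjusted p = 0.447). The comparison with Sar1B lies within 1 array series, and the call was lost without Sar1B line 2 (0.53, adjusted p = 0.0527) and when arrays were aligned on their bright non-ribosomal probe sets (0.45, adjusted p = 0.107). The dimmer Rpl7l1 probe set had line means of 10.89 and 11.12 in control, 10.81 and 10.75 in Sar1B, 11.15 and 11.51 in Sar1B:H79G and 10.91 in Sar1A. It differed by 0.56 ± 0.14 from Sar1B (adjusted p = 0.0632) and by 0.33 ± 0.14 from control (adjusted p = 0.133), the same direction without passing.

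**Figure D4:**
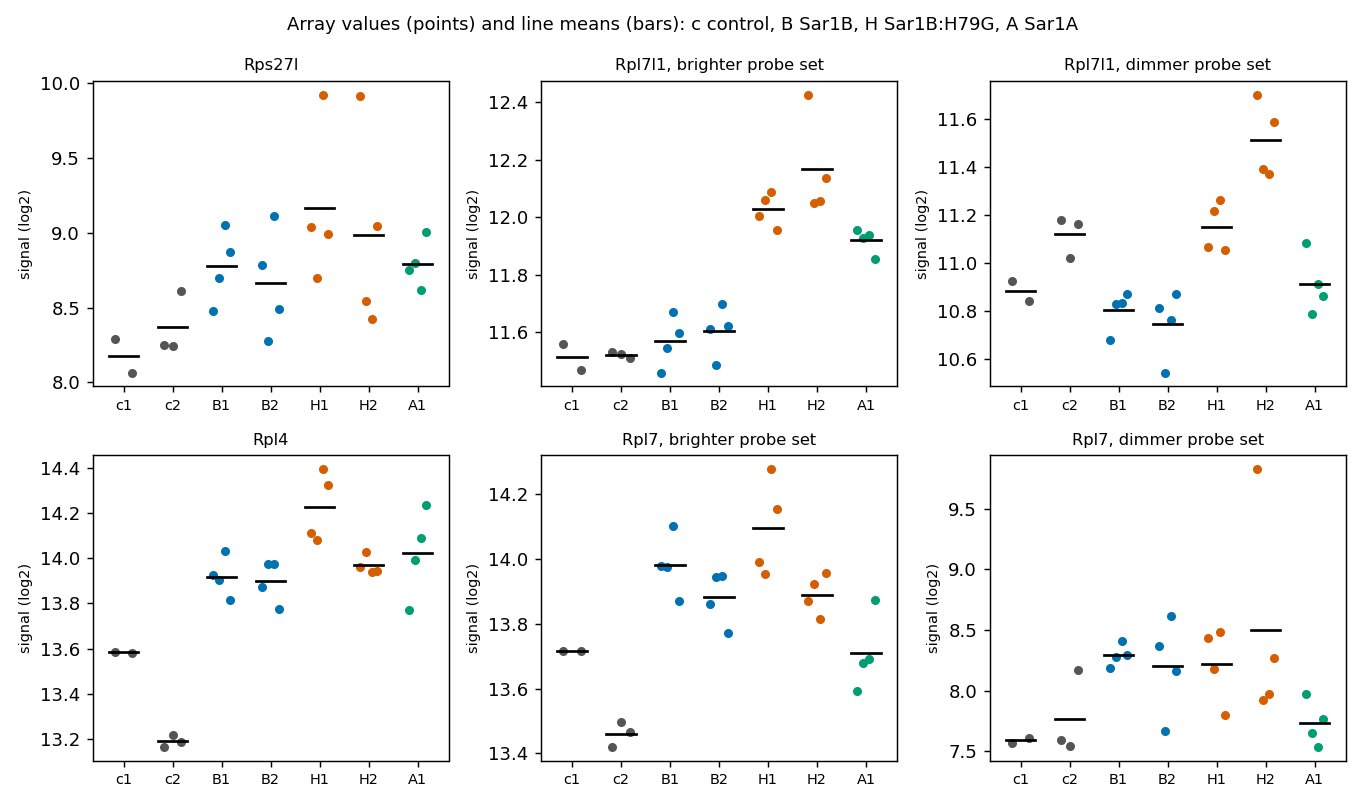
Log2 signal of every array (points) and line mean (bars) for 6 probe sets of Rps27l, Rpl7l1, Rpl4 and Rpl7 in control (c), Sar1B (B), Sar1B:H79G (H) and Sar1A (A) lines, each panel on its own axis. The brighter Rpl7l1 probe set lies between 11.47 and 11.56 in the control arrays and between 11.96 and 12.43 in the Sar1B:H79G arrays, and 1 Sar1B:H79G array reaches 9.82 for the dimmer Rpl7 probe set.

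Among canonical 60 S proteins the largest rise was that of Rpl4, which reaches into the tunnel through which the nascent chain leaves the ribosome. Its line means were 13.58 and 13.19 in control, 13.92 and 13.90 in Sar1B, 14.23 and 13.97 in Sar1B:H79G and 14.02 in Sar1A. No array of a Sar1 line (lowest 13.77) reached down to a control array (highest 13.58). The difference from control was 0.71 ± 0.15 (adjusted p = 0.0218) in Sar1B:H79G, and 0.52 ± 0.15 and 0.64 ± 0.18 in Sar1B and Sar1A, which did not pass (adjusted p = 0.0794 and 0.122). Rpl4 kept its call in Sar1B:H79G after quantile normalization (0.33, adjusted p = 0.0307) and lost it after alignment on bright non-ribosomal probe sets (0.36, adjusted p = 0.0924), without control line 2 (0.51) and without Sar1B:H79G line 1 (0.58). Centred on the median of the bright members in each line, Rpl4 was higher in all 5 Sar1 lines (13.87 to 14.01) than in the control lines (13.72 and 13.58).

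Rpl3, which lies near the catalytic centre, differed by 0.56 ± 0.14 (adjusted p = 0.0399), and its dimmer probe set by 0.33 ± 0.10 (adjusted p = 0.0553). Rpl5 and Rpl11 bind 5 S rRNA together and, when free of ribosomes, can hold back the p53 ligase Mdm2. Rpl5 rose by 0.59 ± 0.12 (adjusted p = 0.0191), from line means of 13.97 and 13.64 to 14.45 and 14.34. Rpl11 differed by 0.30 ± 0.12 and did not pass (adjusted p = 0.122). Whether the pair differ from each other was not tested. Rplp0, the base of the stalk that recruits translation factors, had line means of 13.84 and 13.61 in control and 14.39 and 14.07 in Sar1B:H79G, a difference of 0.50 ± 0.13 (adjusted p = 0.0399), and Rpl12, which sits beside it, differed by 0.57 ± 0.14 (adjusted p = 0.0342). Values for Rplp0 were as high in Sar1A (14.32), at 0.59 ± 0.16 over control (adjusted p = 0.112). Rpl6, Rpl13a, Rpl14, Rpl18, Rpl19, Rpl23a and Rpl26 passed as well, with differences of 0.40 to 0.50. Among the called bright members only Rpl4 kept its call after quantile normalization, and none did without control line 2 or after alignment on bright non-ribosomal probe sets. Rpl26 lost its call in 10 of 16 alternatives, and Rpl6 and Rpl18 in 8 each. Rpl23a and Rpl26 lie around the tunnel exit, where the signal recognition particle and the translocon dock. Of the canonical 60 S genes with bright probe sets the smallest difference was 0.16 ± 0.10 (Rpl35a, adjusted p = 0.259).

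On the 40 S side 2 of 13 genes passed, where 24% of all genes did. Rps3a, near the exit path of the message, differed by 0.60 ± 0.16 (adjusted p = 0.0405). One of 3 probe sets of Rpsa, the protein also known as the laminin receptor, passed at 0.43 ± 0.11 (adjusted p = 0.0368), while the others stood at 0.23 and 0.31. The median difference of the 12 bright 40 S genes was 0.36 and that of the 25 bright 60 S genes 0.40. Rps3a lost its call in 8 of 16 alternatives and Rpsa in 9, with lowest values of 0.13 and 0.02. Rps6, the S6 kinase substrate, was at 0.41 and did not pass.

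The only member called lower was the Rpl28 probe set, a dim one with line means of 7.20 and 7.18 in control, 6.98 and 7.03 in Sar1B, 6.79 and 6.95 in Sar1B:H79G and 6.90 in Sar1A. The difference from control was -0.32 ± 0.08 (adjusted p = 0.0333). Its sign held in every alternative, and the call was lost without either control line or Sar1B:H79G line 1. The call was also lost without either Sar1B line, which changes the estimate of the spread and not the difference. Across the 7 lines this probe set correlated with the mean of the bright members at r = -0.90. Dim probe sets of other genes also departed from the block. The dimmer probe set of Rpl14 was at 0.01 ± 0.07 where the bright one rose by 0.43 ± 0.10 (adjusted p = 0.0303). For Rps24 the brighter probe set was at 0.26 ± 0.14 and the dimmer at -0.13 ± 0.21, and neither passed. Rpl7 showed the reverse, with 0.68 ± 0.11 (adjusted p = 0.0114) for the dimmer probe set and 0.40 ± 0.11 (adjusted p = 0.051) for the brighter. The dimmer one stood at 0.62 (adjusted p = 0.00564) when the median of a line's arrays replaced the mean, and lost its call without either control line (0.59 and 0.77), with the line as a random block (0.67) and after alignment on bright non-ribosomal probe sets (0.33).

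Of the 6 paralogs, Rps27l and Rpl7l1 were the only ones called, where 24% of all genes were. Rpl26l1, a near copy of Rpl26, was at -0.16 ± 0.07 (adjusted p = 0.14) while Rpl26 rose by 0.42 ± 0.12 (adjusted p = 0.0485). The muscle-enriched Rpl3l was at 0.24 ± 0.09, and Rpl39l1 and Rps4y2 were at -0.00 and 0.03. Line means of these 4 paralogs lay between 7.04 and 8.26, around the medians of whole arrays.

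The Sar1B and Sar1A comparisons use the same control lines, so that their values stand beside those of the mutant and are no independent repeat. In Sar1B against control 2 of 55 members passed, where 8.29% of all probe sets did, namely Rps27l and the dimmer Rpl7 probe set (0.57 ± 0.11, adjusted p = 0.0383), and each lost its call when any control or Sar1B line was left out. The bright members had a median difference of 0.26 (1.20-fold), all 40 positive, beside 0.29 for bright probe sets of other genes. In Sar1A against control, where 1.18% of all probe sets passed, 0 members passed in limma's test. Of the 55 members 37 had an unadjusted p under 0.05. So had 151 of the 238 bright probe sets of other genes and 7069 of all 31042 probe sets. The bright members' median was 0.40, equal to that of the bright probe sets of other genes. The Sar1A group is 1 line, assumed to vary like the others. After quantile normalization the members' medians were -0.02 in both comparisons, and 1 and 0 members passed.

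Rpl7 stood apart in the Sar1A line. Its bright probe set had line means of 13.72 and 13.46 in control, 13.98 and 13.88 in Sar1B, 14.09 and 13.89 in Sar1B:H79G and 13.71 in Sar1A. Relative to the median of the bright members of each line, the Sar1A value was 13.56 and the other 6 lines lay between 13.85 and 13.93. The dimmer probe set was also low in Sar1A, at 7.73, below all other Sar1 lines. The differences of Sar1A from Sar1B were -0.22 ± 0.14 and -0.52 ± 0.14 and did not pass (adjusted p = 1 and 0.502).

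Comparisons among the Sar1 lines lie within 1 array series and ask what the GTP-locked mutant adds to overexpression of Sar1 itself. Amounts of recombinant Sar1 were not matched. The paper reports more of it in Sar1A lines than in Sar1B or Sar1B:H79G lines, with the larger excess over Sar1B. In Sar1B:H79G against Sar1B only the brighter Rpl7l1 probe set passed among 55 members, where 8.63% of all probe sets passed. In limma's test 4 members had an unadjusted p under 0.05, beside 6657 of all 31042 probe sets. The bright members had a median difference of 0.09, or 1.07-fold, with 36 of 40 positive and a range of -0.02 to 0.27, beside 0.07 for bright probe sets of other genes. Rpl13a, a large subunit protein that silences messages of inflammation when it is released from the ribosome, had the highest of these values, 0.27 ± 0.10 (adjusted p = 0.171). In Sar1B:H79G against Sar1A 0 members passed in limma's test (3 at an unadjusted p under 0.05, beside 4657 of all 31042 probe sets). There 2.96% of all probe sets passed, and the bright members' median was -0.05. In Sar1A against Sar1B 0 members passed (2 at an unadjusted p under 0.05, beside 2036 of all 31042 probe sets). There 1 of all 31042 probe sets passed (0.00322%), and the bright members' median was 0.12. For Rplp0, for example, the mutant differed from Sar1B by 0.08 ± 0.13 and from Sar1A by -0.09 ± 0.16, each difference smaller than its SE.

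Genes that supply or use the ribosome were examined from lists written with these results known, with the brightest probe set per gene. Over all genes the higher and lower calls in Sar1B:H79G against control fell whichever control, Sar1B or Sar1B:H79G line was left out. Rack1, a ribosome-bound scaffold outside the naming rule, was at 0.38 ± 0.14 over control (adjusted p = 0.11), close to the bright members. Of 15 other genes with TOP messages, elongation factors among them, 5 rose against control and 0 fell, where 13.4% of all genes rose and 10.6% fell. The list's median was 0.33. The count was 0 without control line 2 or Sar1B:H79G line 1, 2 without control line 1 or either Sar1B line, and 6 without Sar1B:H79G line 2. Eif4a2 (0.56 ± 0.13), Eef1d (0.50 ± 0.09) and Naca (0.44 ± 0.11) were the largest of them. Against Sar1B 0 of the 15 passed in limma's test (5 at an unadjusted p under 0.05, beside 3921 of all 14217 genes). After quantile normalization the median against control was 0.01. The gene most like the mean of the bright members among abundant messages was of this list, the elongation factor Eef1g, with r = 0.996 over 7 lines, after Tmem229a (0.997) and before Ltc4s (0.995), both of low signal.

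Some factors that build ribosomes rose against Sar1B, within the Sar1 array series. Of 86 ribosome biogenesis genes, 39 rose and 0 fell in Sar1B:H79G against control, where 13.4% of all genes rose, and leaving out control line 2 took this to 11, control line 1 to 17 and Sar1B:H79G line 2 to 23. Against Sar1B 16 rose and 1 fell, where 4.9% of all genes rose and 7.18% fell. Against Sar1A, in the same array series, 2 rose and 0 fell, where 1.98% of all genes rose. The median differences were 0.30 and 0.20, beside 0.02 and 0.01 over all genes. Wdr75, of the complex that starts rRNA processing, had line means of 9.66 and 9.47 in control, 10.38 and 10.47 in Sar1B, 10.98 and 11.09 in Sar1B:H79G and 10.57 in Sar1A, a rise of 1.46 ± 0.09 over control (adjusted p = 0.00099) and 0.61 ± 0.09 over Sar1B (adjusted p = 0.0137). The nucleolar GTPase Gnl2 rose by 1.01 ± 0.11 and 0.82 ± 0.11, and Wdr12, a partner of Pes1 and Bop1 in large subunit assembly, by 0.78 ± 0.10 and 0.55 ± 0.10. The count against Sar1B was 5 to 15 when single lines were left out, 19 after quantile normalization and 6 after alignment on bright probe sets. Against control the alignment, which moved the median of all genes to -0.32, turned the list's median to -0.05 with 3 higher and 2 lower, still above the median of all genes.

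Of 24 initiation factors, 14 rose and 0 fell against control, where 13.4% of all genes rose, and 4 rose and 1 fell against Sar1B, where 4.9% rose and 7.18% fell, with medians of 0.43 and 0.22. Without control line 2 the count of 14 became 5, and against Sar1B the rises numbered 3 to 5 and the falls 0 when any line was left out. Eif2b3 and Eif2b1, subunits of the exchange factor that recharges eIF2 with GTP, rose by 1.08 ± 0.08 and 1.03 ± 0.15 over control and by 0.77 ± 0.08 and 0.91 ± 0.15 over Sar1B. Eif3c, of the scaffold that joins the 40 S subunit to the message, rose by 0.86 ± 0.08 and 0.60 ± 0.08. These 3 genes also had both Sar1B:H79G line means above all other line means. Of 15 genes of RNA polymerase I, which transcribes rRNA, 5 rose against control and 2 against Sar1B, beside 13.4% and 4.9% of all genes, among them the terminator Ttf1 (1.01 ± 0.08 over Sar1B, adjusted p = 0.00329, and 0.31 ± 0.08 over control, adjusted p = 0.0464) and the subunit Polr1h (0.73 ± 0.10 over Sar1B), while Polr1f passed against control only (0.70 ± 0.17). Ttf1 was lower in Sar1B than in control (-0.70 ± 0.08, adjusted p = 0.0142). Leaving out single lines took the control count of this list to between 0 and 5.

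Among 15 regulators of TOP message translation, 7 rose and 3 fell against control, where 13.4% of all genes rose and 10.6% fell, and 3 rose and 1 fell against Sar1B, where 4.9% rose and 7.18% fell. Without control line 2 the control counts became 2 and 1, and without any other single line 5 or 6 and 1 or 2. Sesn2, a stress-induced inhibitor of mTOR complex 1, had line means of 11.36 and 11.30 in Sar1B:H79G, while the other 5 lines lay between 9.40 and 9.73. It rose by 1.88 ± 0.07 over control (adjusted p = 0.000898) and by 1.64 ± 0.07 over Sar1B (adjusted p = 0.00152). Ddit4, which restrains the same complex, and Eif4ebp1, the cap-binding inhibitor that the complex phosphorylates, rose by 1.10 ± 0.17 and 1.10 ± 0.07 over control and by 1.34 ± 0.17 and 0.88 ± 0.07 over Sar1B. Sesn1, a relative of Sesn2, fell by 0.95 and 0.53. The 73 mitochondrial ribosomal protein genes, whose products translate mitochondrial messages, had 9 higher and 7 lower against control and a median of 0.06, shares near the 13.4% higher and 10.6% lower of all genes. Leaving out single lines took the higher count from 0 without control line 2 to 14 without Sar1B:H79G line 1. Mrps27 (0.86 ± 0.21) and Mrpl47 (0.84 ± 0.13) were the largest rises and Mrpl34 (-0.89 ± 0.22) the largest fall against control. Whether these lists differ from the ribosomal proteins was not tested.

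**Figure D5:**
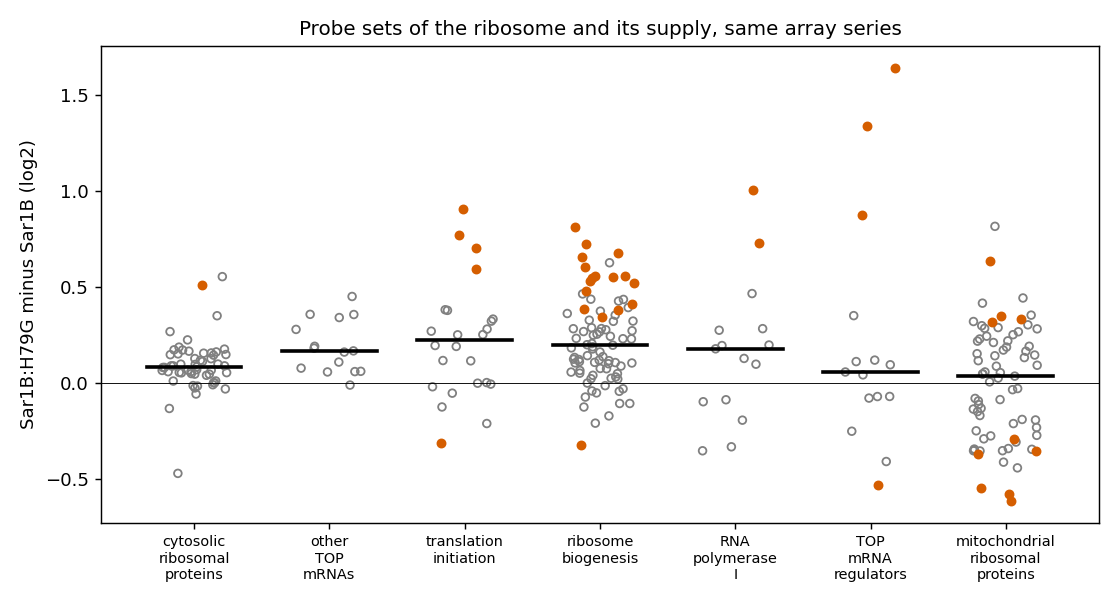
Difference of Sar1B:H79G from Sar1B (log2), which lie in 1 array series, for the 55 ribosomal probe sets and, with the brightest probe set per gene, for 6 lists of related genes; filled points passed the test and bars are medians. Filled are 1 of the 55 ribosomal probe sets, where 8.63% of all probe sets passed, and 17 of 86 ribosome biogenesis genes (16 higher, 1 lower). Of all genes 12.1% passed. The highest point is Sesn2 at 1.64.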

How the data were processed

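RNA of 7 McArdle-RH7777 lines in 4 groups was hybridized to 25 Affymetrix rat genome arrays by the authors, who normalized the signals in CARMAweb (loess and MAS 5 methods; version not given in the sources used here). The deposited values are log2 signals, 1 per probe set and array, with the log base inferred from their range. They come without detection calls, so that no background level could be set. The number of lines limits the stated precision, and the SE does not include an effect of the array series.

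Control probe sets of the array (57) were left out. The arrays of a line were averaged on the log2 scale, and limma 3.58.1 (R 4.3.3) was run on the averages of the 7 lines with 1 coefficient per group, 3 residual and 3.16 prior degrees of freedom. The p-values were Benjamini-Hochberg adjusted over all 31042 probe sets, and 6 comparisons were made. Lines are clones, and p-values measure the spread between them. The script was tested on simulated data. The members and lists were chosen with earlier results of these data known. Named genes are the 5 largest rises and falls among the brightest probe sets of member genes that passed in each comparison, the stalk, paralog (with partner) and 5 S particle genes, the 3 genes with a called probe set whose probe sets differ most, the 3 largest changes of each list and the 3 genes most correlated with the bright members; others are named for their place in the ribosome after their values were seen. Gene symbols come from the platform annotation, and 53 of 55 probe sets matched the RefSeq gene table by gene identifier. Of the members 6 probe sets carry a suffix for possible cross-hybridization. Alternatives were other replicate units, scalings, filters and left-out lines. Leaving out a line of a group that is not compared changes the estimate of the spread and not the difference. Alternatives that differ only in this way can be the same fit, so that counts of alternatives are not counts of separate checks. The labels tie same-numbered lines to nothing shared, and their deviations correlated at 0.0071, 0.192 and 0.0752 over all probe sets (0.251, 0.138 and 0.341 over the bright members), so the numbers were taken as names of lines, not as pairs.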

Additional observations from a re-analysis of the deposited data

Results flagged for a closer look

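Over the called members and the median deviation of the bright members, 76 groups of arrays were tested, and in 4 the highest array stood apart from the rest of its group, where chance gives about 1 in 20. For the dimmer Rpl7 probe set 1 control array was at 8.17, with the next at 7.61, and 1 Sar1B:H79G array was at 9.82, with the next at 8.48. For the brighter Rpl7l1 probe set 1 Sar1B:H79G array was at 12.43, with the next at 12.14, and for Rpl23a 1 Sar1B array was at 13.57, with the next at 13.43. With the median of a line's arrays in place of their mean, the called differences of these 3 probe sets from control kept their calls (0.62, 0.55 and 0.39).

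The effect of Sar1B:H79G relative to control was larger than that of Sar1B by 0.51 for the brighter Rpl7l1 probe set, which is the tested difference between both groups (adjusted p = 0.0116). Its cause was not tested.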

How the results depend on the processing

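Member probe sets passing in Sar1B:H79G against control (18) became 49 with each array as a replicate, 45 with the line as a random block, 5 after quantile normalization, 4 (1 higher, 3 lower) after alignment on bright non-ribosomal probe sets, chosen after seeing the data, 38 with the replicate number as a block, 9 with only the groups compared, and 2 to 17 when a line was left out. Sar1B against control (2) became 45, 24, 1, 1 and 4 in the first 5 of these, 1 after median alignment, 0 above the median signal and 0 to 2 without a line. Sar1A against control (0) became 46, 40, 1 after alignment on bright probe sets and 6 with only the groups compared. Sar1B:H79G against Sar1B (1) became 9 and 4 with arrays or a random block, 2 above the median signal and 0 to 2 without a line; after alignment on bright probe sets its 1 call was the dim Rps24 probe set (-0.53) and not Rpl7l1. Sar1B:H79G against Sar1A (0) became 5 and 2, 1 with a trended robust prior, 1 with the mean of a gene's probe sets and 0 to 1 without a line, and Sar1A against Sar1B (0) became 1 and 1. In Sar1B:H79G against control the calls over all probe sets, higher and lower, also fell whichever control, Sar1B or Sar1B:H79G line was left out. Counts with arrays as replicates treat repeat measurements of a clone as independent. The block of replicate numbers, which were not taken as pairs, could not be fitted for Sar1A.

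The members' median against control moved from 0.33, 0.24 and 0.38 (Sar1B:H79G, Sar1B, Sar1A) to -0.00, -0.02 and -0.02 after quantile normalization, and to -0.01, -0.05 and -0.01 after alignment on bright probe sets, which moved the median of all probe sets to -0.32, -0.26 and -0.37. No called member changed sign in any alternative. The cause was not tested. Without detection calls the dim probe sets have no measured background.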
